A study of Rattus norvegicus with 70 samples.

Results

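The lung of male Wistar-Kyoto rats that had breathed air for 4 h was compared with 5 other tissues of air-exposed rats of the same strain: liver, adrenal, hypothalamus, adipose and muscle. Lung in air was 6 of the 68 libraries with values, set against 6 air libraries of liver, 5 of adrenal, 6 of hypothalamus, 5 of adipose and 6 of muscle. The members were chosen by their labels alone, as the libraries labelled lung and air, and all 6 held the surfactant genes that define the tissue at levels far above every other library. The other 34 libraries came from rats of the same sex and strain that had breathed 0.8 ppm ozone for 4 h, and they served only to look again at the lung genes. All libraries were mRNA-seq of bulk tissue that had been flash frozen. The labels give no age and do not say that equal library numbers mark 1 rat. RNA of lung and liver was taken up with the same kind of column (Qiagen RNeasy Mini), muscle and adipose with other Qiagen kits, and hypothalamus and adrenal with a Zymo kit, so for every contrast but that with liver the tissue and the extraction cannot be told apart. A value below is a gene's reads per 1000000 reads of its library (CPM), which is not divided by gene length and so compares 1 gene between libraries, never 1 gene with another.

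The lung is a gas-exchange surface. Flat alveolar type 1 cells and capillary endothelium form the barrier through which gases pass, while alveolar type 2 cells make surfactant, a film of lipid and proteins that lowers surface tension, and renew the type 1 cells. Airways are lined with secretory club cells and ciliated cells, the whole is held by an elastic mesenchyme, and macrophages, lymphocytes and granulocytes guard the surface. In bulk tissue a higher level of a transcript may come from more cells of a type or from more RNA in each cell, and these cannot be told apart.

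The genes that set lung apart in these data include several with promoters known as targets of NKX2-1, a homeodomain factor of lung and thyroid, and of forkhead (FOX) factors. The 250 bases upstream of 4 of them are given 5′ to 3′ on the gene's strand as RefSeq holds them for the GRCr8 assembly, since surfactant, club cell and regulator genes are those the tissue comparison turns on. Capitals mark matches on either strand to CTCAAG (an NKX2 core) or to TGTTTAC or TGTTTGC (FOX cores). Sftpb, surfactant protein B, lies on the plus strand at chr4:105917338-105917587, Scgb1a1, the club cell secretory protein, on the minus strand at chr1:215409687-215409936, Sftpa1, surfactant protein A, on the plus strand at chr16:17042014-17042263, and Nkx2-1 itself on the minus strand at chr6:79734868-79735117.
Sftpb: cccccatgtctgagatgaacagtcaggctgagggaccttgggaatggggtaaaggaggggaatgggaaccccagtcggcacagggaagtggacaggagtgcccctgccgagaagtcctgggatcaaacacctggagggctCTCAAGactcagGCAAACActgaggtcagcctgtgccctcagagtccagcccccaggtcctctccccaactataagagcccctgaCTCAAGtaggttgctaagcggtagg
Scgb1a1: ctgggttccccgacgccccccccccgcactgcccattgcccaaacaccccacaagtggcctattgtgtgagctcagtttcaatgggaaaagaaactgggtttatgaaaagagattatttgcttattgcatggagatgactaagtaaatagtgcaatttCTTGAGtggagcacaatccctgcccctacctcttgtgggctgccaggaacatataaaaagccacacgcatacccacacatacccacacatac
Sftpa1: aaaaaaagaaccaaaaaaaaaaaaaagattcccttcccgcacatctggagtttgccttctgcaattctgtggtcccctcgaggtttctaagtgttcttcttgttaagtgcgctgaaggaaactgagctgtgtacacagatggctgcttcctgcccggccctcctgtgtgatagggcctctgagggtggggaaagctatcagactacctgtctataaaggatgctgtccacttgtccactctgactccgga
Nkx2-1: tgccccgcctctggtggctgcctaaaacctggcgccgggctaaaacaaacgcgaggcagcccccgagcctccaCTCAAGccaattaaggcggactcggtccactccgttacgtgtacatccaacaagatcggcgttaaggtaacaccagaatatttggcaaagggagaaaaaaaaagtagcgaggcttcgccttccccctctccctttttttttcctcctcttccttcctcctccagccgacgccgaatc
Windows of Ager, Tbx4 and Lamp3 were searched as well and hold none of these letters, so 3 of 7 windows searched have a match. The Sftpb window holds 2 NKX2 cores and 1 FOX core on the reverse strand. Scgb1a1 holds 1 NKX2 core on the reverse strand, Nkx2-1 holds 1, and none of these letters occur in the Sftpa1 window. A match is a string and not a shown binding site: among 27457 promoter windows of this length the NKX2 core occurs in 13.3%, TGTTTAC in 3.25% and TGTTTGC in 4.09%. A promoter was found for 295 of the 445 lung-high genes, and there the shares were 14.6%, 3.39% and 4.41% in the same order. Among 11405 promoters of tested genes they were 12%, 2.04% and 2.96%. These differences were not tested, and lung-high genes without a promoter window are left out of them.

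Of 15554 genes with a mean of at least 1 CPM over the 34 air libraries, 445 (2.86%) were higher in lung than in each of the 5 other tissues by at least 4-fold. By limma 2 genes (0.0129%) were lower than in all 5 by that much, where edgeR gave 20 and DESeq2 26. Each call asked for a log2 difference of at least 2 in value plus 1, and an adjusted p under 0.05 by limma with Benjamini-Hochberg adjustment, in all 5 contrasts. Every gene with a difference of that size passed the p threshold, so the size alone set the calls. A gene near 0 in the other tissues passed the filter of 1 CPM only through its lung level. Shares of the list members tested depend on that filter. The smallest of a gene's 5 differences is called its nearest difference here. Its quartiles over the 445 genes were 2.33, 2.76 and 3.76, with 96 genes at least 16-fold and 19 genes at least 64-fold above the nearest tissue. Together the 445 genes held 12.3% to 13.8% of the reads of a lung library, and 0.895% to 1.17% in adipose, which had the highest share among the other tissues. Adipose was the nearest tissue for 162 of the genes (36.4%), hypothalamus for 123 (27.6%), liver for 97 (21.8%), adrenal for 47 (10.6%) and muscle for 16 (3.6%). In 439 of the 445 the lowest lung library lay above all 28 libraries of the other tissues, which held for 1421 of all genes tested (9.14%). Just inside the threshold stood Pcdh12 and Clec2g, each with a nearest difference of 2.002, and Ocln with 2.003. Just outside stood Nkg7 with 2.000, Chi3l1 with 1.998 and Rac2 with 1.996.

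The counts against single tissues depended on how libraries were scaled. At 4-fold, 4017 genes (25.8%) were higher and 798 (5.13%) lower in lung than in liver, and 3462 (22.3%) higher and 660 (4.24%) lower than in muscle. Against adrenal 1880 (12.1%) were higher and 806 (5.18%) lower, against adipose 1387 (8.92%) and 624 (4.01%), and against hypothalamus 1639 (10.5%) and 1807 (11.6%). The median gene stood 1.10 (log2) higher in lung than in liver and 0.95 higher than in muscle, against 0.20 for adipose, 0.08 for adrenal and 0.04 for hypothalamus. With TMM scaling, which centres the bulk of genes, these medians were 0.04, 0.08, 0.02, -0.03 and 0.04. Higher genes then made up 55.4% of the calls against liver in place of 83.4%, and 54.5% in place of 84% against muscle. The share went from 69% to 59.5% for adipose, from 70% to 65.3% for adrenal and from 47.6% to 46.5% for hypothalamus. Under TMM 308 genes were higher than in all 5 tissues, all of them among the 445, and 6 were lower. Medians of gene lists below are therefore to be read against those of all genes.

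Surfactant and alveolar type 2 cell genes stood far above the other tissues. Of 15 listed genes tested, 13 were higher than in all 5 tissues, and their median difference was 6.77 to liver, 7.74 to adrenal and 6.57 to hypothalamus, where all genes had 1.10, 0.08 and 0.04. Sftpc, surfactant protein C, an integral peptide of the film made in type 2 cells alone, had 4139 CPM in the lowest lung library, 5269 at the median and 6347 in the highest. It had 0.480, 8.65 and 169 in liver and 0.546, 6.12 and 46.5 in hypothalamus. The 5 adrenal libraries had 2.43, 2.15, 20.5, 0.584 and 3.88, the 5 adipose libraries 0, 0, 0.0682, 0.0604 and 0.0579, and no muscle library more than 0.114. All 6 lung libraries were thus far above every other library, and liver spanned the widest range of the rest. The nearest difference of Sftpc was 8.93 (SE 0.79, to liver, limma adjusted p = 4.73e-12).

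Sftpa1, a collectin that binds microbes and surfactant lipid, had 7497, 10131 and 11640 at the lowest, median and highest lung library. In liver it had 0.480, 12.7 and 318, in hypothalamus 0.437, 14.5 and 74.0, and in muscle 0, 0 and 0.208. Its 5 adrenal values were 4.07, 3.27, 42.5, 0.417 and 7.75, and 1 adipose library had 0.0604 where the other 4 had 0. It had the largest nearest difference of all, 9.43 (SE 0.89, to liver, limma adjusted p = 2.12e-11), which was 8.18 with TMM scaling. Sftpb, the surfactant protein that spreads the film, had 1450, 2126 and 2678 in lung against 0.0600, 2.98 and 58.9 in liver, with a nearest difference of 8.75 (SE 0.62). Not a single Sftpb read was found in the 5 adipose libraries, so lung was at least 59024-fold higher than the level that 3 reads over those libraries would give. Sftpd, the other surfactant collectin, had 1158, 1318 and 1794 in lung and a nearest difference of 8.34. Lamp3, a membrane protein of lamellar bodies, had 649 to 1002 and a nearest difference of 8.05.

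Other genes of the type 2 cell list, transporters and a mucin, were also far above the other tissues. Slc34a2, the phosphate cotransporter of the alveolus, ranged from 3250 to 4216 in lung and from 37.4 to 227 in liver, its nearest tissue (5.60). Slc6a14, an amino acid transporter, had 208 to 282 in lung, 0 in all adipose and muscle libraries and a nearest difference of 6.97. Muc1, a membrane mucin of airway and alveolar surfaces, had 233 to 325 in lung and a nearest difference of 6.25, to hypothalamus.

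**Figure D1:**
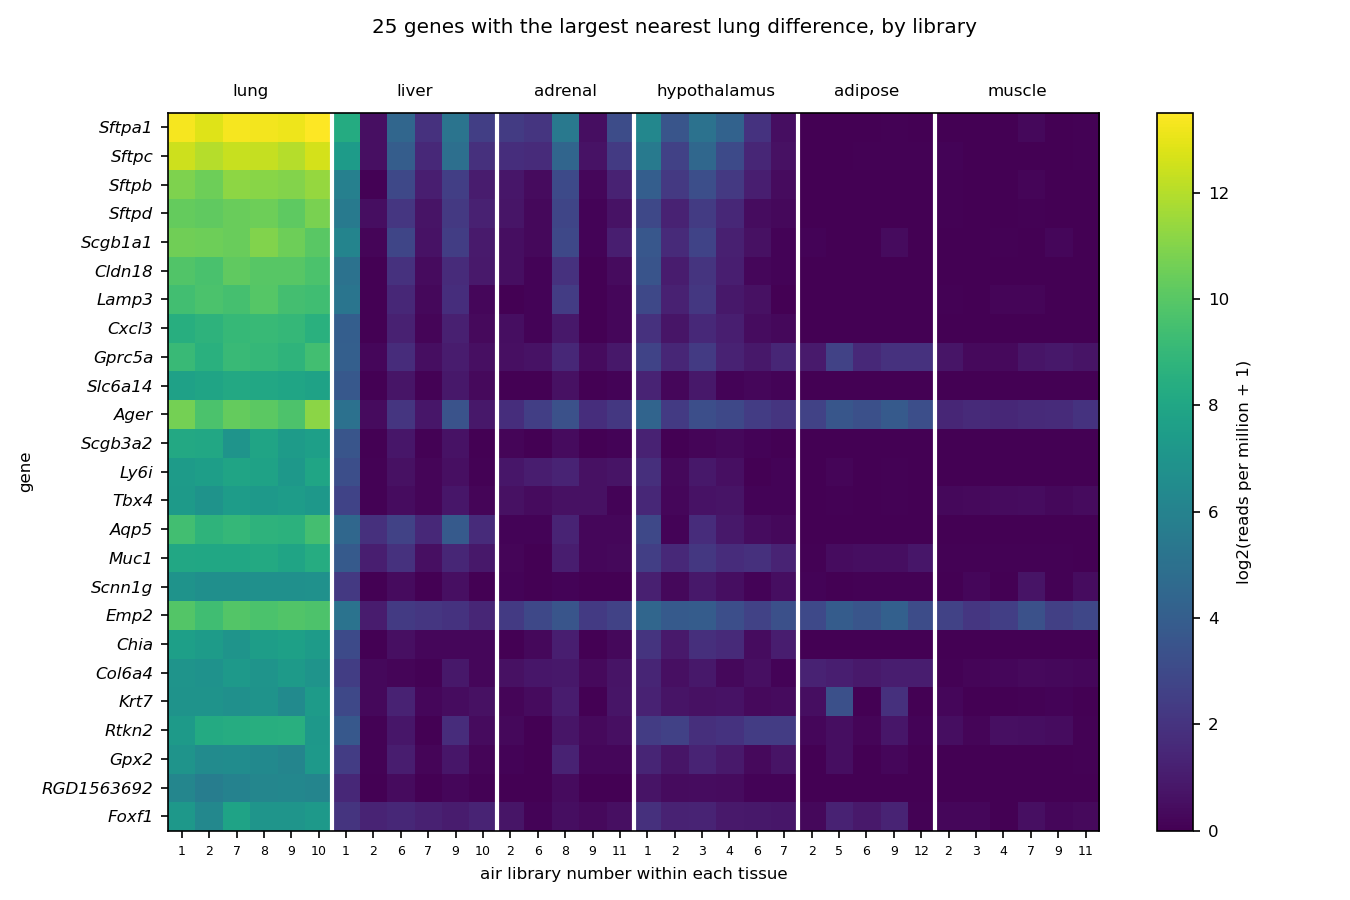
Heat map of log2(CPM + 1) for the 25 genes with the largest nearest difference (rows) in the 34 air libraries (columns, numbered within each tissue). The 6 lung columns are bright throughout, adipose and muscle are near 0 for most genes, and the first liver column is brighter than the other liver columns for all 25 genes.

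Of the alveolar type 1 cell genes, 11 of 14 were higher than in all 5 tissues. Their median differences were 7.13 to liver, 6.94 to adrenal, 5.47 to hypothalamus, 5.64 to adipose and 6.29 to muscle. Cldn18, a claudin that seals alveolar tight junctions, had 799, 966 and 1195 at the lowest, median and highest lung library. Liver had 0, 1.57 and 33.3, hypothalamus 0.109, 1.13 and 10.3, and the adrenal libraries 0.392, 0.113, 2.82, 0 and 0.323. No read of it was found in any adipose or muscle library, so that lung was at least 26931-fold and 31546-fold higher than 3 reads over each of those groups would give. The nearest difference of Cldn18 was 8.22 (SE 0.54, to liver, limma adjusted p = 2.13e-15). Ager, the receptor for advanced glycation end products and a membrane marker of type 1 cells, was detected in every library. It had 832, 1171 and 2259 in lung against 5.25, 11.3, 8.79, 12.9 and 8.40 in adipose, the nearest tissue (6.96, SE 0.54). The lung libraries differed among themselves by over 2-fold for Ager, yet lay far above the highest other value, 31.9 in liver.

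Other type 1 genes showed a like distance. Aqp5, a water channel, had 405 to 696 in lung and a nearest difference of 6.33 to liver. Emp2, a membrane protein of caveolae-rich cells, had 656 to 957 and 6.18, Gprc5a, an orphan receptor, 375 to 686 and 7.21, and Hopx, a homeodomain cofactor, 336 to 556 and 5.08. Rtkn2 had 147 to 364 in lung and 2.55 to 5.17 in hypothalamus, its nearest tissue (5.76).

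Secretory airway genes were split by abundance and by library. Of 10 tested, 5 were higher than in all 5 tissues. Against liver 7 were at least 4-fold higher and 1 lower in lung, beside 25.8% and 5.13% of all genes. The summed list was 2034 to 3184 CPM in lung and 2759 to 3461 in liver. Scgb1a1, the main secreted protein of club cells, had 1065, 1449 and 1982 in lung. It had 0.120, 2.71 and 66.5 in liver, 0.109, 1.69 and 11.7 in hypothalamus, 0.392, 0.226, 6.65, 0.0834 and 1.21 in adrenal, and at most 0.302 in adipose and 0.160 in muscle. Its nearest difference was 8.32 (SE 0.64, to liver, limma adjusted p = 1.63e-13), and the 6 lung libraries did not overlap any other. Scgb3a2, a second secretoglobin, had 126 to 285 in lung and 6.85. Muc5b, the gel-forming mucin of airways and glands, had 52.8, 107, 15.1, 21.4, 15.3 and 9.59 in lung air 1, 2, 7, 8, 9 and 10, and Agr2, needed to fold mucins, 9.43 to 58.5. Their nearest differences were 4.05 and 3.45, and 3.29 and 2.86 when lung air 1 and 2, the libraries with the most Muc5b, were left out. Scgb3a1, a secretoglobin of the larger airways, had 20.8 and 40.6 in those libraries and 0.0933 to 0.884 in the other 4, and was not called (1.82).

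Ciliated cell genes did not set lung apart from all 5 tissues, because hypothalamus held them too. Of 18 tested, 16 were at least 4-fold higher in lung than in liver, 13 than in adrenal, 14 than in adipose and 15 than in muscle, but only 1 than in hypothalamus. Ccdc40, which places the inner arms of motile cilia, had 12.7, 18.4 and 34.9 in lung and 13.5, 17.2 and 23.8 in hypothalamus, which overlapped (difference 0.18, limma adjusted p = 0.442). The exception was Sntn, a protein of the ciliary tip, at 5.21 to 11.9 in lung and at most 0.331 in any other library (nearest difference 2.92). Without lung air 1 and 2 its mean fell under the filter of 1 CPM and it was not tested. Among basal, neuroendocrine and tuft cell genes, 4 of 10 passed that filter. The 2 called were both of tuft cells, Trpm5, a taste-transduction channel, at 50.3 to 76.1 in lung and at most 2.12 elsewhere, and Pou2f3, their lineage factor, at 8.32 to 13.7 and at most 1.31 elsewhere. The other 2 tested were at least 4-fold lower in lung than in hypothalamus, and 1 of them also than in adrenal. Krt5, Tp63 and Krt15, genes of airway basal cells, had means too low to be tested.

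Endothelial genes were higher in lung in large number. Of 32 tested, 16 were higher than in all 5 tissues and 26 had their lowest lung library above every other library, beside 9.14% of all genes. Their median differences were 4.84 to liver, 3.31 to adrenal, 3.97 to hypothalamus, 2.19 to adipose and 3.93 to muscle, and 12 of the 32 were called under TMM. Calcrl, the receptor for adrenomedullin and calcitonin gene-related peptide, had 2981, 3995 and 4444 in lung. It had 28.5, 50.2 and 237 in liver, 49.1, 77.6 and 95.2 in hypothalamus, 66.2, 86.2 and 176 in muscle, 39.3, 59.4, 102, 38.6 and 40.4 in adrenal, and 115, 81.3, 157, 83.9 and 56.3 in adipose. Every tissue had some, and the 6 lung libraries lay above all of them (nearest difference 5.34, SE 0.32, to muscle, limma adjusted p = 1.66e-15). Tmem100, a BMP-dependent membrane protein of arterial and capillary endothelium, had 1606 to 2490 in lung and 41.6 to 126 in hypothalamus (4.74). Clec14a, a vascular lectin, had 766 to 1214 and a nearest difference of 3.52, and Cyyr1 669 to 1329 and 3.45. Cdh5, the cadherin of all endothelial junctions, was closer: 737 to 963 in lung and 318 to 481 in adipose, a difference of 1.07 that was under the threshold of size. Cldn5, the tight junction claudin of endothelium, reached 1.91 to adipose, and passed the threshold at 2.02 when lung air 1 and 2 were left out, at 2.01 without lung air 2 alone and at 2.04 without adipose air 5.

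Genes that set vascular tone and clotting at the vessel wall included some of the same transcripts. Of 35 vascular tone and prostanoid genes, 14 were higher than in all 5 tissues (11 under TMM), with median differences of 4.01, 2.90, 2.78, 2.19 and 3.73 to liver, adrenal, hypothalamus, adipose and muscle. Ace, which makes angiotensin II on lung capillaries, had 889 to 1207 in lung and at most 162 in any other library (adipose, nearest difference 3.56). Edn1, the vasoconstrictor endothelin 1, had 54.5 to 90.9 in lung and 2.72 to 8.70 in adipose (3.71). Vipr1, a receptor for vasoactive intestinal peptide, had 84.4 at the median and 121 at most in lung and 1.92 to 8.19 in liver (4.31). Of 14 coagulation and fibrinolysis genes 2 were called, Thbd, the thrombin receptor that turns on protein C, at 1692 to 2479 (3.60 to adipose), and Vwf, the platelet adhesion protein, at 1006 to 1315 (2.86 to adipose). Tfpi, an inhibitor of tissue factor, had a nearest difference of 1.31, while Procr, the protein C receptor, was at 12.0 to 18.6 in lung and 24.8 to 82.7 in adipose.

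Mesenchymal genes and transcription factors were called in part. Of 18 fibroblast and mesenchyme genes, 8 were higher than in all 5 tissues, and of 27 lung transcription factors 14 were (7 and 11 under TMM). Tbx4, a T-box factor of lung and limb mesenchyme, had 120, 158 and 178 in lung, 0.0600, 0.252 and 5.67 in liver, and at most 1.82 in every library of the other 4 tissues (6.54, SE 0.27). Foxf1, a forkhead factor of lung mesenchyme and capillaries, had 79.2, 139 and 227 in lung and 1.05, 1.57 and 3.15 in liver (5.70, SE 0.22). Tcf21, a fibroblast factor, and Tbx5 had 95.1 to 127 and 34.4 to 53.3 in lung, with nearest differences of 4.25 and 5.01. Npnt, an integrin ligand of basement membranes, had 67.5 to 82.7 and 3.43.

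Nkx2-1, the factor named above, was shared with hypothalamus. It had 149, 181 and 194 at the lowest, median and highest lung library and 16.3, 21.2 and 27.8 in hypothalamus, where its expression is known in the ventral forebrain. Liver had 0, 0.178 and 7.40, adrenal 0, 0, 1.11, 0 and 0.242, and adipose and muscle had no read, so lung was at least 4961-fold and 5811-fold higher than 3 reads over those groups would give. Its nearest difference was 2.96 (SE 0.30, to hypothalamus, limma adjusted p = 9.48e-11) and 2.95 under TMM. Foxa1, a forkhead factor of endoderm, went the other way in liver: 6.92 to 11.7 in lung and 9.72 to 24.5 in liver, a difference of -0.85 (limma adjusted p = 1.19e-04), so it was not called.

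Ion and fluid transport genes, which keep the alveolar lining thin, had 7 of 15 members higher than in all 5 tissues under both scalings. The 3 subunits of the epithelial sodium channel were all among them. Scnn1g had 105, 109 and 120 in lung, 0, 0.149 and 3.70 in liver and 0.0891, 0.419 and 1.24 in hypothalamus, and it was near 0 in most libraries of the other tissues (6.22, SE 0.23). Scnn1a had 481 to 726 in lung and 6.41 to 24.1 in liver (5.48), and Scnn1b 14.1 to 23.1 in lung and 0.975 to 1.78 in hypothalamus (3.18).

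Extracellular matrix as a whole did not mark lung, though single genes did. Of 37 matrix genes, 8 were higher than in all 5 tissues. Their median difference to adipose was 0.11, or -0.14 under TMM, beside 4.76, 2.45, 2.60 and 1.83 to liver, adrenal, hypothalamus and muscle. Ltbp2, a microfibril protein, had 332 to 463 and at most 33.6 elsewhere (3.96), and Col4a3, a collagen of the alveolar and glomerular basement membrane, 163 to 357 and at most 36.0 elsewhere (3.33). Eln, the elastin gene, had 290 to 579 in lung and 94.5 to 259 in adipose, above every other library but by 1.20 only. Of 17 smooth muscle and pericyte genes 2 were called (1 under TMM), of which Cox4i2, a cytochrome oxidase isoform known in pericytes and in lung, had 47.8 to 91.3 in lung and 11.6 to 18.0 in adipose (2.31). The other, Actg2, a smooth muscle actin, was at the threshold (2.03) and fell under it when lung air 1 (1.95), lung air 2 (1.99), hypothalamus air 4 (1.89) or hypothalamus air 6 (1.99) was left out. The median difference of the list to adipose was 0.16, and -0.08 under TMM.

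**Figure D2:**
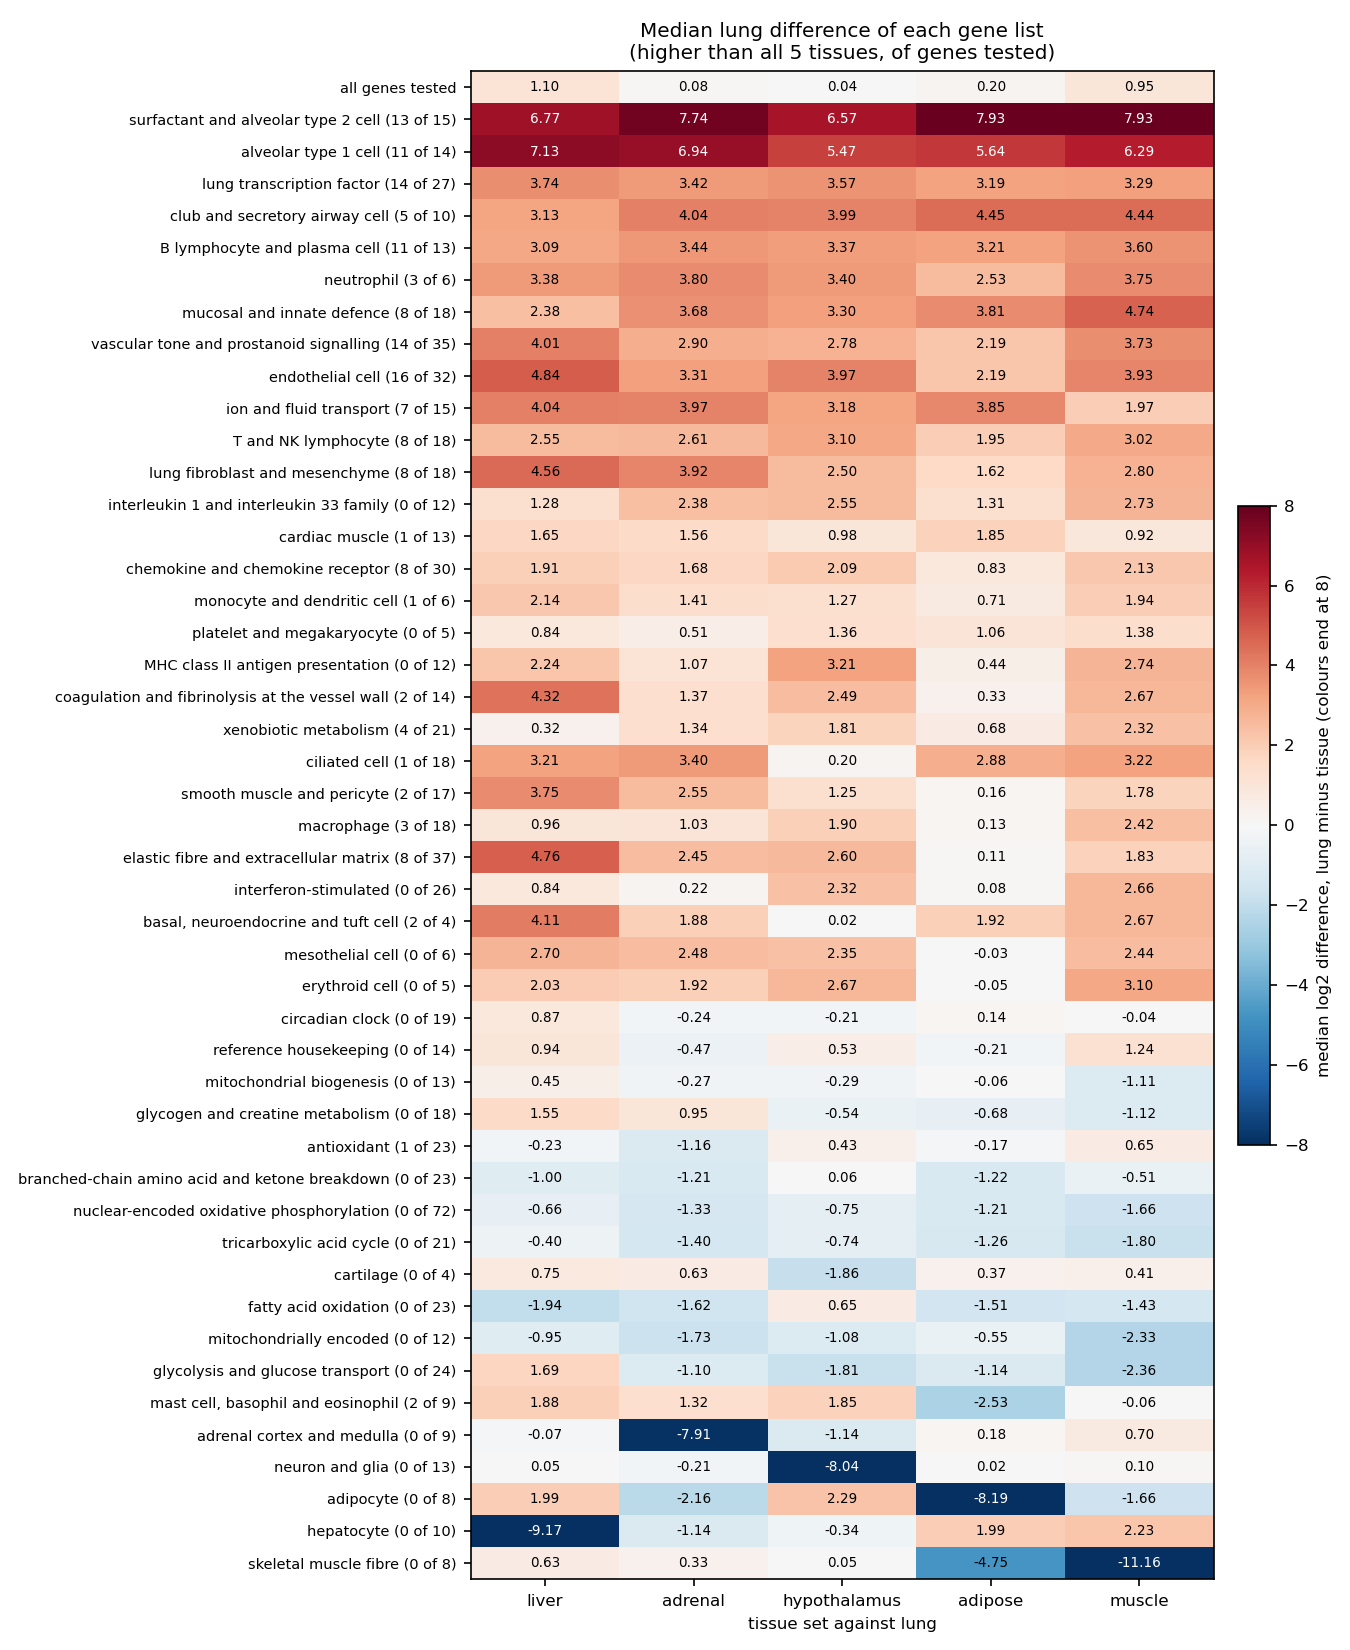
Median log2 difference between lung and each of 5 tissues for 46 gene lists and for all genes tested, with the number of list members higher than in all 5 tissues beside each name. Values against tissues in which a gene had no read depend on the 1 added before the logarithm; the alveolar lists stand at the top, and the marker lists of the other tissues have their lowest value in their own tissue.

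B cell genes stood out among the immune lists, with 11 of 13 tested (from 17 with values) higher than in all 5 tissues and 10 under TMM. Bank1, a B cell adaptor, had 55.2 to 81.3 in lung and at most 5.12 in any other library (4.54, SE 0.19 to liver). Spib, a transcription factor of B cells and plasmacytoid dendritic cells, had 24.6 to 44.7 (4.35), Jchain, which joins secreted antibodies, 134 to 294 (4.14), and Ighm, the IgM heavy chain, 271 to 534 (4.02). Without lung air 1 and 2, 8 B cell genes were called.

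Of 18 T and NK cell genes tested, from 26 with values, 8 were higher than in all 5 tissues and 3 under TMM. Those called included cytotoxic genes: Prf1, perforin, at 51.3 to 76.7 in lung and at most 10.4 elsewhere (3.10), Gzmk at 17.1 to 29.7 (3.17) and Gzmb at 9.77 to 16.5 (3.05). Of 14 neutrophil genes with values 6 passed the filter of 1 CPM, and 3 of these were called (2 under TMM). Among them were S100a9, a subunit of calprotectin, at 21.1 to 31.4 in lung and at most 1.49 elsewhere (3.65), and Cd177, a neutrophil surface protein, at 8.74 to 51.8. Lung air 1 and 2 had the most Cd177, 33.7 and 51.8, where lung air 7, 8, 9 and 10 had 8.74 to 21.2. S100a8, of the same list, had 1.38 to 3.27 in lung and was not tested. Cd177 had no read in any adrenal, hypothalamus, adipose or muscle library.

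Macrophage genes were for the most part not particular to lung in level. Of 18 tested 3 were called: Clec7a, the beta-glucan receptor dectin 1, at 114 to 164 in lung and at most 6.38 elsewhere (4.30), Itgax, the integrin CD11c, at 99.3 to 134 and at most 21.7 elsewhere (2.77), and Gpnmb at 203 to 364 and at most 53.6 elsewhere (2.65). The median difference of the list was 0.96 to liver, which turned to -0.38 under TMM, and 0.13 to adipose. Marco, a scavenger receptor often used to mark alveolar macrophages, had at most 0.442 in lung, with 0 at the median, against 7.56, 20.2 and 32.2 in liver. Siglec1, sialoadhesin, had 24.7 to 32.4 in lung and 50.3 to 136 in adipose. Mast cell proteases were lower in lung than in adipose: Cpa3 had 4.76 to 9.77, against 52.2 to 120, and Tpsb2 0.840 to 1.69, against 11.1 to 48.7. Both were above every liver, adrenal and hypothalamus library, where Cpa3 reached 3.31 and Tpsb2 0.727, while muscle had 10.5 to 19.3 of Cpa3 and 0.247 to 2.18 of Tpsb2. The 2 called genes of the mast cell list are not confined to mast cells, Kit, a growth factor receptor, at 572 to 835 (2.64) and Gata2, a factor of blood and endothelium, at 99.7 to 139 (2.58).

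Chemokine and receptor genes had 8 of 30 members higher than in all 5 tissues, and 4 under TMM. Against adipose 9 were at least 4-fold higher and 5 lower in lung, beside 8.92% and 4.01% of all genes. Cxcl3, a neutrophil attractant, had 350, 471 and 543 in lung, 0, 0.777 and 15.6 in liver, 0.218, 0.966 and 2.81 in hypothalamus and no read in adipose or muscle (7.66 to liver). Cxcl17, a mucosal chemokine, had 19.9 to 37.5 in lung and at most 1.18 elsewhere (4.27). Cxcr4 had 145 to 253 in lung and 21.7 to 51.1 in adrenal (2.46). Of 6 monocyte and dendritic cell genes tested 1 was called, Clec9a, a receptor for dead cells on dendritic cells, at 2.09, which was 2.00 without adipose air 5 and 1.98 without lung air 9, both under the threshold. It was also not called under TMM (1.83), by edgeR (1.97) or without lung air 1 and 2, and no other gene of the list was. No member of 12 interleukin 1 and 33 family genes, 26 interferon-stimulated genes or 12 MHC class II genes was called by limma in either direction, and none was called by edgeR or DESeq2. Since size sets these calls, smaller differences remain possible: 6 of the 12 interleukin genes and 4 of the 12 class II genes had their lowest lung library above every other library. Of all genes tested 9.14% did. Cd74, the invariant chain of class II, had 1268 to 1987 in lung and 436 to 907 in adipose, above every other library but with a nearest difference of 1.32.

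Mucosal and innate defence genes had 8 of 18 members higher than in all 5 tissues (7 under TMM). Against liver 10 were at least 4-fold higher and 4 lower in lung, beside 25.8% and 5.13% of all genes. Against adipose 13 were higher and 2 lower, beside 8.92% and 4.01%. The summed list was 11937 to 18059 CPM in lung and 17692 to 22683 in liver. Lyz2, lysozyme of macrophages and type 2 cells, had 9425, 12942 and 15653 in lung, 16.4, 36.9 and 410 in liver and 36.0, 52.8 and 87.5 in muscle. It had 270, 303, 139, 238 and 290 in adrenal and 296, 513, 323, 661 and 253 in adipose, the nearest tissue (5.04, SE 0.49). Lcn2, which withholds siderophores from bacteria, had 128 to 237 and 3.82, Retnla, a resistin-like protein, 34.7 to 78.3 and 5.40, and Chia, a chitinase of type 2 cells, 124 to 201 and 6.12. Among 23 antioxidant genes 1 was called, Gpx2, a glutathione peroxidase of epithelia, at 69.7 to 149 in lung and at most 4.25 elsewhere (5.73). Sod1, Sod2 and Sod3, the superoxide dismutases, had levels in lung between those of other tissues.

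Foreign-compound enzymes showed 4 of 21 genes higher than in all 5 tissues, liver included. Cyp1a1, induced through the aryl hydrocarbon receptor, had 14.8 to 45.1 in lung and 0.855 to 2.60 in liver (3.38). Cyp2s1 had 20.1 to 30.7 (2.69), Cyp4b1, a fatty acid and xenobiotic hydroxylase, 503 to 697 (2.55 to adipose) and Fmo2, the flavin monooxygenase of lung, 471 to 1548 (2.38 to adipose). The median difference of the list to liver was 0.32, and -1.05 under TMM.

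Both genes that limma called lower were low in every lung library. Aldh1l1, a folate enzyme of liver and astrocytes, had 1.32, 2.17 and 4.25 at the lowest, median and highest lung library. It had 91.8, 226 and 242 in liver, 20.9, 24.8 and 32.6 in hypothalamus, 21.3, 24.6 and 38.2 in muscle, 132, 131, 48.0, 112 and 172 in adrenal and 89.9, 91.6, 76.8, 75.7 and 115 in adipose. All 6 lung libraries were below all 28 others, with a nearest difference of -2.97 (SE 0.24, to hypothalamus, limma adjusted p = 5.77e-13). Gpt2, the mitochondrial alanine aminotransferase, had 3.23, 3.92 and 6.43 in lung, 122, 194 and 208 in liver, 30.9, 33.5 and 42.3 in hypothalamus and 59.0, 106 and 129 in muscle. Its adrenal values were 668, 537, 722, 646 and 467, and its adipose values 55.2, 62.5, 62.0, 129 and 132. Again no lung library reached any other library (nearest difference -2.77, SE 0.21, to hypothalamus, limma adjusted p = 4.05e-14).

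At a looser threshold of 2-fold, 29 genes (0.186%) were lower in lung than in all 5 tissues, and for 50 genes (0.321%) the highest lung library lay below every other library. The 29 included Slc16a1, a lactate and ketone transporter (-1.58), Tpi1 of glycolysis (-1.07, and -2.47 under TMM) and Mdh1, malate dehydrogenase (-1.02), examples chosen after their values were seen. Mdh1 had 188, 324 and 476 at the lowest, median and highest lung library, and its lowest value elsewhere was 502, in adrenal. Of 72 nuclear genes of oxidative phosphorylation none was called against all 5 tissues by limma, edgeR or DESeq2, and 6 lay below every other library in all 6 lung libraries. Their median difference was -0.66 to liver, -1.33 to adrenal, -0.75 to hypothalamus, -1.21 to adipose and -1.66 to muscle, where all genes had 1.10, 0.08, 0.04, 0.20 and 0.95. At any size (limma, adjusted p under 0.05), 52 of the 72 were lower in lung than in liver, beside 11.9% of all genes, and 64 than in adrenal, beside 29.9%. Against hypothalamus 53 were lower, beside 33.6%, against adipose 63, beside 23.6%, and against muscle 64, beside 13.6%. Under TMM the medians were -2.03, -1.44, -0.71, -1.41 and -2.70. The 12 mitochondrially encoded genes (-0.95, -1.73, -1.08, -0.55 and -2.33) and 21 genes of the tricarboxylic acid cycle (-0.40, -1.40, -0.74, -1.26 and -1.80) had negative medians to all 5 tissues too, under either scaling. Fatty acid oxidation had a median of -1.94 to liver but 0.65 to hypothalamus, and glycolysis -2.36 to muscle but 1.69 to liver.

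**Figure D3:**
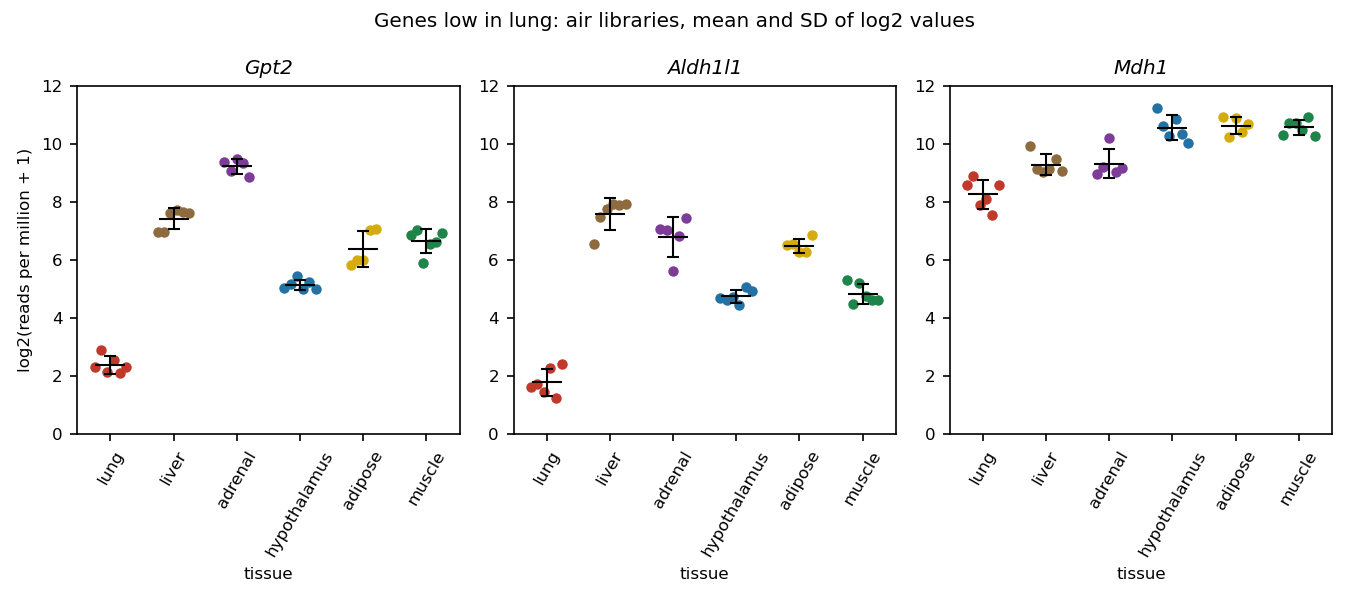
Each panel plots log2(CPM + 1) of 1 gene in the 34 air libraries by tissue, with the mean and SD as black bars. Lung lies below every other library for Gpt2, Aldh1l1 and Mdh1, with the smallest gap for Mdh1, between 476 in lung and 502 in adrenal.

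Each marker list of the other tissues had its lowest median lung difference in its own tissue. Single members could differ: of 8 adipocyte genes, 7 were at least 4-fold lower in lung than in adipose and 1 at least 4-fold higher. Against the tissue each list marks, the median lung difference was -9.17 for 10 hepatocyte genes, -11.16 for 8 skeletal muscle genes, -8.19 for 8 adipocyte genes, -7.91 for 9 adrenal genes and -8.04 for 13 neuron and glia genes. No member of these 5 lists was higher in lung than in all 5 tissues by limma, or by edgeR.

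Transcripts of lung were also read at low levels in some libraries of other tissues. Taking the 25 genes with the largest nearest difference, liver air 1 held a median of 3.64% of their lung means (2.17% to 5.49%), where the other 5 liver libraries held 0.0217% to 0.342%. Hypothalamus air 1 held 1.12% and its other libraries 0.0700% to 0.431%, and adrenal air 8 held 0.401% against 0.00791% to 0.0789%. In adipose and muscle the medians were at most 0.0204%. Liver air 1 also had 11.3 CPM of Myh6, a heart muscle myosin, and 3.70 of Bpifa1, a nasal and airway protein. The other 5 liver libraries had at most 0.1845 of Myh6 and no read of Bpifa1. Outside liver, hypothalamus libraries held 13.0 to 21.4 of Myh6 and 2.10 to 4.72 of Bpifa1, and muscle libraries 9.24 to 31.0 of Myh6. When liver air 1, adrenal air 8 and hypothalamus air 1 were left out, a choice made after seeing the data, 448 genes were higher, 437 of them among the 445, and the same 2 were lower. The origin of these reads was not tested.

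**Figure D4:**
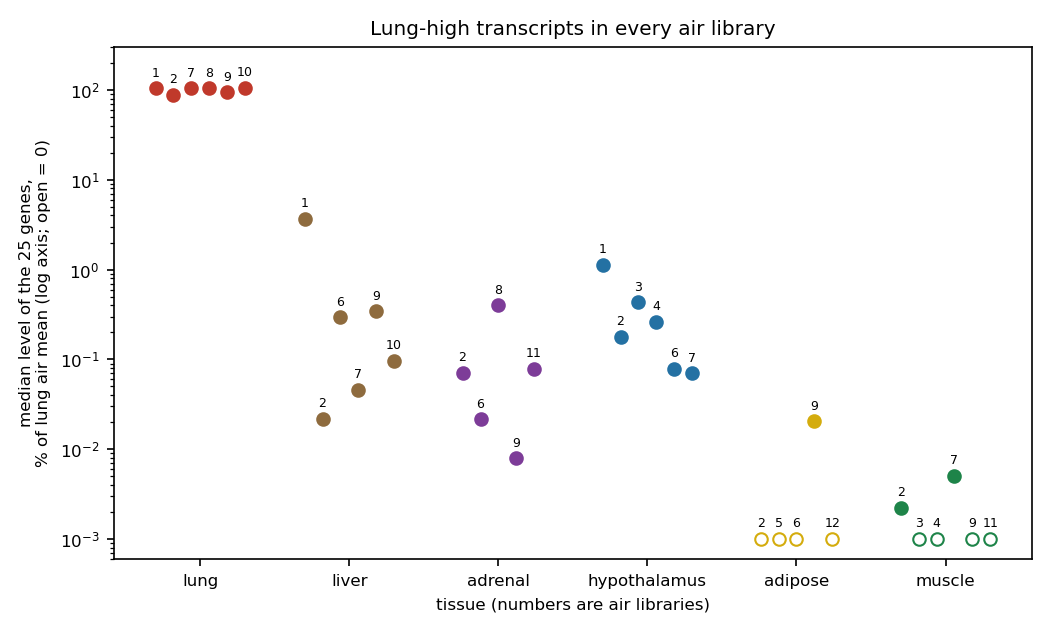
Each point is 1 air library, at the median over the 25 genes of its level as a percent of the lung air mean, on a log axis, with open points at the foot for a median of 0. Liver air 1 stands at 3.64% and hypothalamus air 1 at 1.12%, while the 6 lung libraries lie between 87.3% and 105%.

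The 6 lung libraries differed widely in marker genes of heart, upper airway, fat, liver and adrenal. Myh6 had 149, 290, 1.03, 1.84, 0 and 15.5 CPM in lung air 1, 2, 7, 8, 9 and 10, and the summed level of the heart muscle list was 584 and 849 in the first 2, well above the other 4. Bpifa1, chosen after its values were seen, had 70.0, 103, 0, 0.811, 5.36 and 0.181. Lung air 1 and 2 were thus high in both, as they were in Muc5b and Scgb3a1. Adipoq, the fat cell hormone, had 11.5, 39.3, 0.187, 0.147, 0.0734 and 112, with lung air 10 highest. Alb, serum albumin made in liver, had 38.1, 707, 51.3, 1049, 21.1 and 17.9, with lung air 2 and 8 high. Cyp21a1, the adrenal 21-hydroxylase, had 33.6 in lung air 7 and at most 3.79 in the other 5. Sftpc ranged only from 4139 to 6347 over the same libraries. Leaving out lung air 1 and 2, again after seeing the data, gave 420 higher genes, of which 404 were among the 445, and the same 2 lower genes. Of 13 heart muscle genes, 1 was called higher than in all 5 tissues, Ankrd1, a stretch-responsive protein, at 24.2 to 78.8 in lung and 1.60 to 56.8 in muscle, which overlapped, and it was not called under TMM. On the same list edgeR and DESeq2 each called 3 genes.

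**Figure D5:**
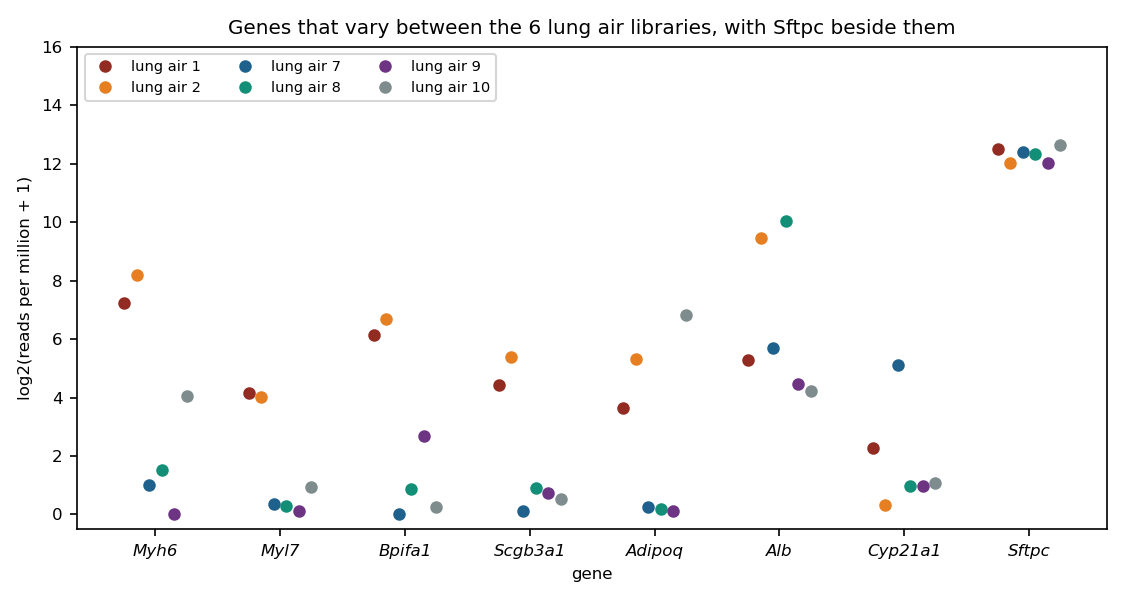
Points are log2(CPM + 1) of 8 genes in each of the 6 lung air libraries, coloured by library. Lung air 1 and 2 are highest for Myh6, Myl7, Bpifa1 and Scgb3a1, lung air 10 for Adipoq, lung air 8 for Alb and lung air 7 for Cyp21a1, while the Sftpc points lie close together.

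Some lung-high genes lay side by side in the genome. In the gene order of RefSeq GRCr8, 400 of the 445 were matched, 396 of them protein-coding, and 63 of these (15.9%) had a lung-high gene as their next tested neighbour, in 35 of 13936 adjacent pairs. Of all genes in that order 5.54% lay next to a lung-high gene. The pairs included Scnn1g and Scnn1b (6.22 and 3.18), Tbx2 and Tbx4 (2.61 and 6.54), Ehf and Elf5 (4.03 and 3.31), Irx2 and Irx1 (2.33 and 2.96), Mbip and Nkx2-1 (2.03 and 2.96), and Col4a4 and Col4a3 (2.68 and 3.33), with nearest differences in brackets. Others belonged to 1 gene family, such as Gimap9, Gimap4, Gimap6 and Gimap7, or Ly6i and Ly6l, whose reads the counting may have shared.

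The lung genes were found again in ozone-exposed rats. In the 34 ozone libraries, which the air comparison did not use, 456 of 15429 genes tested (2.96%) were higher in lung than in all 5 tissues and 5 (0.0324%) were lower. Of the 445 genes of the air libraries 354 (79.6%) were called again, which was 77.6% of the 456, and 69 of the other 91 differed in the same direction from all 5 tissues. The 91 also hold genes that fell under the filter in the ozone libraries and were not tested there, such as Igkv4-53 and Lrriq4. All 25 genes with the largest nearest difference were called again, and so were both lower genes.

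Within lung, ozone and air libraries were compared gene by gene on the deposited values of the lung table. Of 14828 genes tested 1410 (9.51%) were higher and 1213 (8.18%) lower in ozone by limma with adjusted p under 0.05. Among the 445 lung-high genes 54 (12.1%) were higher and 88 (19.8%) lower, and their median difference was -0.12 beside 0.00 for all genes. This comparison uses the same lung air libraries as the tissue comparison, so the shares are a description. Of the 25 leading genes 6 were higher and 3 lower: Sftpb, for example, was higher by 0.65 (adjusted p = 0.00279) and Sftpa1 by 0.49 (adjusted p = 0.00741), while Rtkn2 was lower, at -1.32 (adjusted p = 0.00286), all by limma. Scgb1a1 (-0.16, adjusted p = 0.464) and Cldn18 (0.09, adjusted p = 0.585) did not pass in the same limma fit. Single lung-high genes, named after their values were seen, moved further, among them Acer2, an alkaline ceramidase, with a mean of 1062 in air and 3107 in ozone (1.66, SE 0.16, limma adjusted p = 8.18e-06), and Bank1, with 72.2 in air and 22.2 in ozone (-1.63, SE 0.12, limma adjusted p = 1.12e-06). Edn1 was higher in ozone by 1.17 (limma adjusted p = 1.27e-04), and Gzmb and Prf1 were lower (-1.37 and -1.05).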

How the data were processed

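Each tissue has its own table of gene-level signal, which the authors had normalised before they deposited it. Partek, DESeq2 and rn6 appear in the submitters' processing notes without a role or version. The aligner, the gene counting and its use of strand were not stated (not given in the sources used here), and close paralogs and antisense partners are therefore uncertain. In all 68 columns, 100% of deposited values were whole reads divided by 1 factor per library (tolerance 0.01). Of 70 labelled samples, 2 (from adrenal in air and from muscle in ozone) were not used here. Air libraries held 8854272 to 18848151 reads (lung 10714447 to 13619501), and each value's counting precision follows from these totals. No pair of air replicates agreed within sampling noise (lowest chi-square per degree of freedom 10.4). The labels do not say that replicates are separate rats, so p-values measure the spread between these samples, which may be technical.

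The 6 tables were joined on symbol (19441 genes; 24 entries whose symbol had become a date were left out), each column was rescaled to a sum of 1000000, and log2(value + 1) of genes with a mean of at least 1 was fitted with limma 3.58.1 (R 4.3.3; trend, robust; 6 tissue means, 34 air libraries). Lung ozone against air used log2(deposited value + 1) of genes with a mean of at least 10. Alternatives used edgeR 4.0.16 and DESeq2 1.42.0 on the recovered reads, other scalings, pseudocounts, filters and left-out libraries. Tested on simulated data of 15554 genes, the air fit recovered 99 of 100 genes made 8-fold higher in lung, 71 of 100 made 8-fold lower, and called 0 of 15354 unchanged genes. Unchanged genes there had the same mean in all 6 tissues, without the shifts between tissues seen in the data. The 0 therefore does not measure false calls in the real comparison.

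Genes are named by a rule: the 25 called higher genes with the largest nearest difference and a lung mean of at least 10, up to 20 called lower genes with a mean of at least 10 in every other tissue, and for each of 47 lists the first 3 genes and up to 4 called genes with the largest nearest difference. The comparison and lists were chosen with earlier results of these data known. Of the lists, thymocyte genes had no member tested. Sequences are RefSeq's for GRCr8, which is not the build of the tables. A few genes are not reported here.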

Additional observations from a re-analysis of the deposited data

Results flagged for a closer look

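Of 52 lung values examined over the 6 lung air libraries (summed lists and leading values), 2 had 1 library far from the other 5, and chance alone flags about 1 in 20. The summed level of adrenal cortex and medulla genes was 62.3 CPM in lung air 7 and 4.52 to 11.9 in the others, a gap of 0.873 of the whole range. The summed level of cartilage genes was 52.3 in lung air 1 and 23.4 to 31.3 in the others, a gap of 0.728 of the range. None of the adrenal or cartilage genes was called higher in lung than in all 5 tissues by limma or edgeR, and the part of these libraries in other results was not tested beyond leaving each out in turn.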

How the results depend on the processing

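The 445 higher genes became 281 with a pseudocount of 5, 259 with a mean of at least 10 (fewer genes tested), 1105 with a log2 difference of at least 1 and 96 with at least 4. Other settings gave 302 (median-ratio scaling) to 515 (pseudocount 0.1), with 308 under TMM, 389 by edgeR (349 shared) and 377 by DESeq2. The 2 lower genes became 6 with TMM, 5 with median-ratio scaling, 4 with unscaled deposited values, 4 with a pseudocount of 0.1, 20 by edgeR, 26 by DESeq2, 29 at a log2 difference of at least 1 and 0 at 4; the cause was not tested.

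Genes at least 4-fold different became, with a pseudocount of 5, 2821 for liver, 1522 for adrenal, 2235 for hypothalamus, 1109 for adipose and 2268 for muscle. At a log2 difference of at least 1 they were 9529, 6162, 6359, 5238 and 8791, and at 4 they were 1256, 507, 1087, 413 and 741. A mean of at least 10 gave 2101 for hypothalamus and 1310 for adipose, edgeR 3123 and DESeq2 3132 for adipose, and median-ratio scaling 2724 for muscle. Genes called again in ozone libraries were 897 (higher) and 18 (lower) at a log2 difference of at least 1, and 5 (TMM) and 12 (edgeR) for lower genes.

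Leaving out 1 library at a time gave 426 to 458 higher and 2 to 2 lower genes, 4696 to 4979 for liver, 2638 to 2786 for adrenal, 3402 to 3463 for hypothalamus, 1955 to 2072 for adipose, 4037 to 4286 for muscle, 345 to 359 higher and 2 lower genes called again, and 117 to 168 lung-high genes that differed with ozone. Air libraries of equal number in different tissues had a median correlation of -0.045 in their deviations from the tissue mean (45 pairs, 13 over 0.1). Those of different number had 0.015 (436 pairs, 169 over 0.1). Such correlations cannot tell whether equal numbers mark 1 rat. With the number as a replicate block 412 genes were higher, 402 of them among the 445, and 2 lower. From the 5 tissues in the order above 4816, 2654, 3441, 1843 and 4077 genes differed, and 336 and 2 were called again. Of 84 named genes called higher, 70 were called under every alternative that kept them, all 25 leading genes among them, and 0 of 8440 values reversed. Low reads limit genes near 1 CPM.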
